A study of Mus musculus with 8 samples.

Results

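The genes described here are 10 mouse genes of arachidonate supply and release, namely Fads1, Fads2, Elovl2, Elovl5, Acsl3, Acsl4, Pla2g4a, Pla2g6, Pla2g12a and Faah. They were chosen by name for their role in making, activating or releasing polyunsaturated fatty acids, and all 10 were listed in both count tables, which share 22802 genes. RNA sequencing was performed on whole cortices of E11.5 and E12.5 mouse embryos labelled Mboat7+/- or Mboat7-/-, with 2 cortices per genotype at each stage (8 in all). The Mboat7 deletion is a global one on a C57BL/6N background, and the Mboat7+/- embryos that served as controls carry 1 deleted copy. Poly(A) RNA was sequenced by a different provider and on a different platform at each stage, and the count tables list different sets of genes. Stage therefore cannot be told apart from provider, platform or gene listing.

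Arachidonic acid is made from linoleic acid by alternating desaturation and elongation. Acyl-CoA synthetases then couple the free acid to coenzyme A, lysophospholipid acyltransferases place it at the sn-2 position of phospholipids, and phospholipases A2 cleave it off again. MBOAT7 is the acyltransferase that transfers arachidonate from arachidonoyl-CoA to lysophosphatidylinositol. The genes studied here belong to the supply or release of polyunsaturated fatty acids, and not all of them act next to its step.

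Library depth ranged from 20799311 to 28189771 counts. Mboat7 itself had 700 and 876 counts in the E11.5 cortices labelled Mboat7+/- and 1103 and 860 in those labelled Mboat7-/-. At E12.5 it had 739 and 782 against 730 and 729 counts. Mboat7 was thus not called lower in the cortices labelled Mboat7-/- at E11.5 (log2 fold change 0.18, SE 0.11, edgeR adjusted p = 0.501) or at E12.5 (log2 fold change -0.17, SE 0.10, edgeR adjusted p = 0.954). The deleted part of the gene is not given in the sources used here, so that whole-gene counts may not report the deletion and every genotype below is the labelled one. Xist had 17875 counts in 1 E11.5 Mboat7+/- cortex (replicate 1) and at most 2 in the other 7. The 6 markers of dorsal forebrain and progenitors that were summed, such as Emx1 and Pax6, were detected at both stages. The 6 ventral telencephalon markers, such as Nkx2-1 and Dlx2, were detected at both stages as well.

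None of the 10 genes was called different between genotypes at either stage. At an edgeR adjusted p under 0.05, 0 of 10 were called at E11.5, where 0% of the 14935 genes tested were called, and 0 of 10 at E12.5, where 0.0184% of 16326 genes were called. At an unadjusted p under 0.05 the count was 0 of 10 at E11.5 (14.1% of all genes) and 1 of 10 at E12.5 (4.23% of all genes), that one being Acsl3. The 10 genes had a median log2 fold change of -0.05 in the E11.5 fit and of 0.02 in the E12.5 fit, and all genes tested had medians of -0.01 and 0.00. The log2 fold change was above 0 for 2 of the 10 genes at E11.5 (48.9% of all genes) and for 5 of 10 at E12.5 (51.2% of all genes). DESeq2 also called 0 of the 10 at both stages, with no adjusted p given for Faah and Pla2g4a at E11.5, so that 8 of the 10 could be called there. The cortices are labelled as biological replicates, and with 2 against 2 an exact permutation test of a single gene cannot go below p = 0.333 (two-sided).

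Levels of different genes were compared per length, as normalized CPM (counts scaled to a common library size) divided by the merged exon length in kilobases. At E11.5, the mean over the 4 cortices was 65.5 CPM per kb for Fads2 and 61.3 for Fads1, whose ranges overlapped. Next came Elovl5 at 33.1, Acsl3 at 24.6 and Elovl2 at 18.9 CPM per kb, each separated from its neighbours in every cortex. Pla2g6 (6.51 CPM per kb), Acsl4 (5.73) and Pla2g12a (4.79) formed a middle group in which neighbours overlapped. Pla2g4a at 0.794 and Faah at 0.320 CPM per kb were the lowest, with at least 43 counts in every cortex. At E12.5, Fads2 (92.1 CPM per kb) lay above Fads1 (48.3) in every cortex. Elovl5 followed at 31.0, Elovl2 at 25.8 and Acsl3 at 22.6, the last pair overlapping. Pla2g12a (4.48), Acsl4 (4.26) and Pla2g6 (3.35) again overlapped as neighbours, and Faah (0.413) and Pla2g4a (0.270) were lowest. The desaturase and elongase genes and Acsl3 therefore lay above the other 5 genes in all cortices of both stages.

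**Figure D1:**
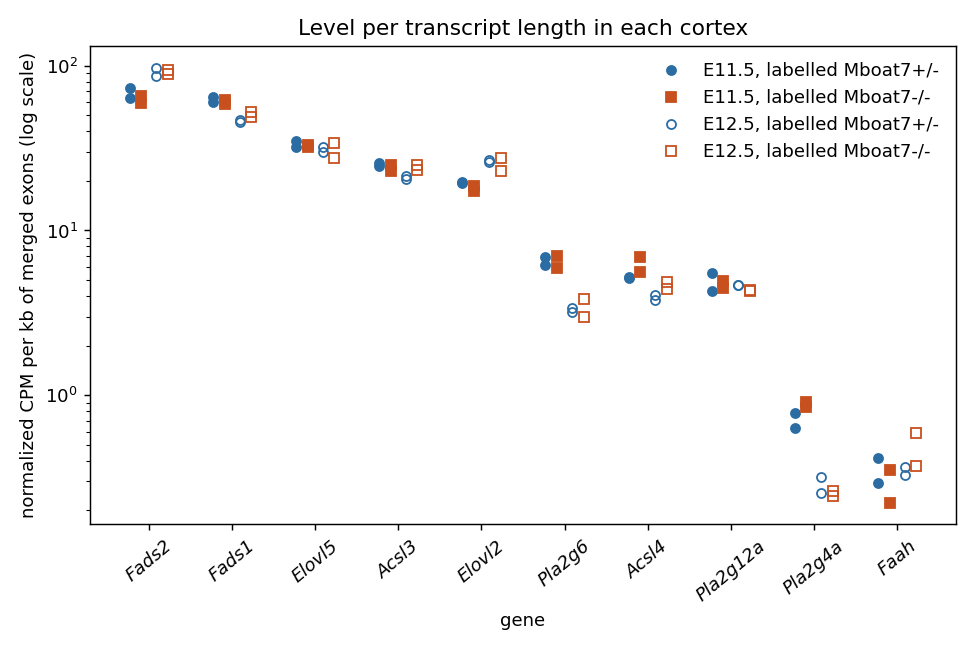
Normalized CPM per kb of merged exons (y axis, log scale) for each of the 10 genes (x axis) in each cortex. Filled symbols are E11.5 and open symbols E12.5, with circles for cortices labelled Mboat7+/- and squares for Mboat7-/-. The 5 genes on the left lie at 17.5 CPM per kb or more in every cortex and the 2 on the right at 0.912 or less.

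Fads2, the delta-6 desaturase, and Fads1, the delta-5 desaturase, catalyse the desaturation steps of arachidonate synthesis and are neighbours on chromosome 19 in opposite orientation (GRCm38, Fads2 at chr19:10062765-10101746 on the minus strand and Fads1 at chr19:10182888-10196877 on the plus strand). At E11.5, Fads1 was at 312 and 289 CPM in the Mboat7+/- cortices and at 298 and 281 CPM in the Mboat7-/- cortices. The genotypes overlapped, with a log2 fold change of -0.05 (SE 0.07, 95% interval -0.20 to 0.10). At E12.5, Fads1 was at 218 and 227 CPM against 251 and 234 CPM. Both Mboat7-/- cortices were above both Mboat7+/- cortices, but the log2 fold change of 0.13 (SE 0.09) did not pass the test (edgeR adjusted p = 0.954). Fads2 was at 241 and 211 CPM against 217 and 195 CPM at E11.5, with a log2 fold change of -0.13 (SE 0.08, 95% interval -0.32 to 0.06). The E12.5 cortices had 287 and 321 CPM against 312 and 293 CPM, with a log2 fold change of -0.01 (SE 0.10, 95% interval -0.23 to 0.21). The Fads2 values of the genotypes overlapped at both stages.

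Elovl5 and Elovl2 encode fatty acid elongases, ELOVL5 acting on shorter and ELOVL2 on longer polyunsaturated chains. Elovl2 was at 77.5 and 78.3 CPM in the E11.5 Mboat7+/- cortices and at 69.3 and 74.1 CPM in the Mboat7-/- cortices. Both Mboat7-/- values were lower, with a log2 fold change of -0.12 (SE 0.08) that did not pass the test (edgeR adjusted p = 0.526). At E12.5, Elovl2 was at 106 and 103 CPM against 109 and 91.0 CPM, and the genotypes overlapped (log2 fold change -0.06, SE 0.10). Elovl5 overlapped at both stages. At E11.5, its 123 and 113 CPM stood against 116 and 114 CPM (log2 fold change -0.03, SE 0.07). At E12.5, its 106 and 114 CPM stood against 120 and 97.4 CPM (log2 fold change -0.01, SE 0.11). The 95% intervals for these 4 genes at the 2 stages all included 0 and lay between -0.32 and 0.33.

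**Figure D2:**
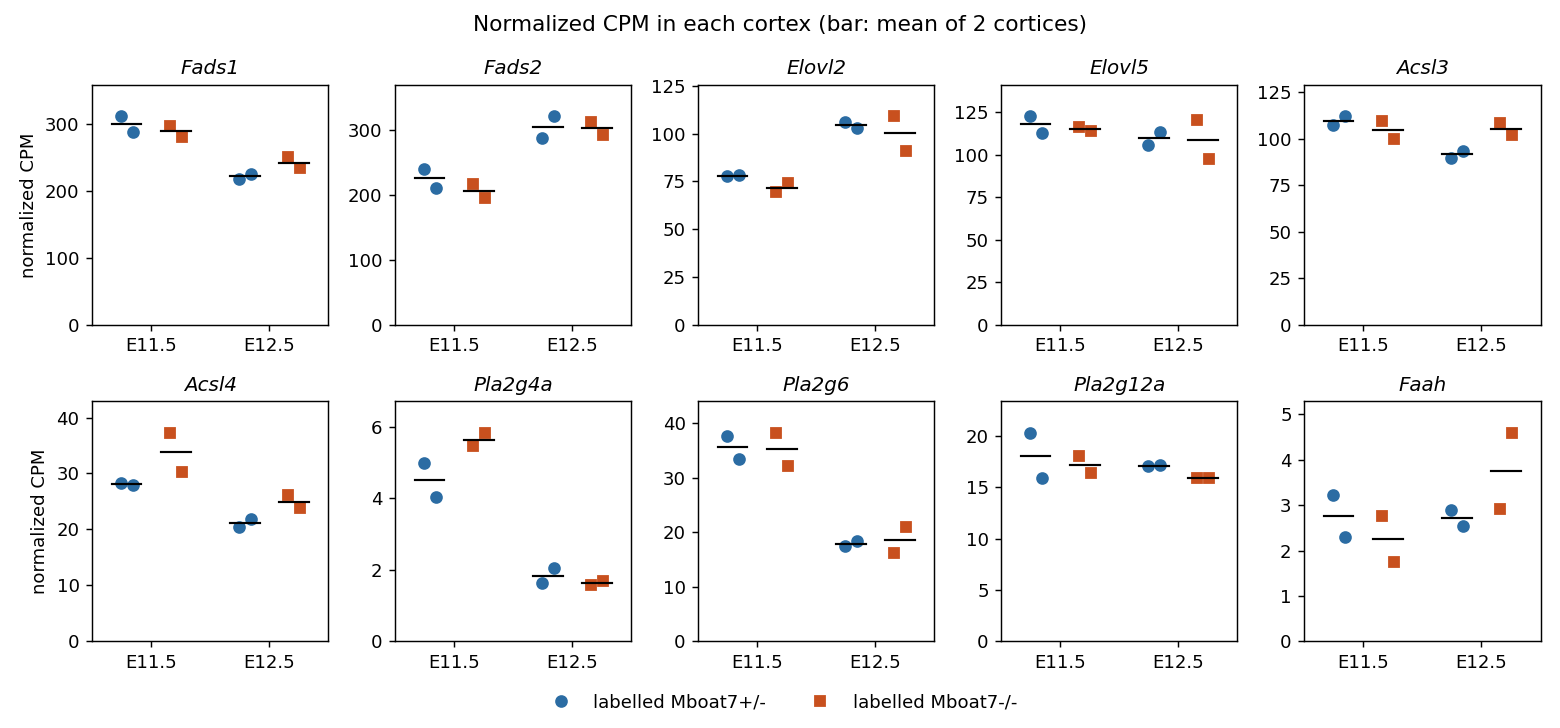
Normalized CPM (y axis, starting at 0) of each gene in each cortex at E11.5 and E12.5 (x axis). Circles are cortices labelled Mboat7+/-, squares Mboat7-/-, and bars the mean of 2 cortices. For Acsl4 both squares lie above both circles at each stage, as they do for 23.1% of all genes at E11.5 and 16.9% at E12.5.

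Acsl3 and Acsl4 encode long-chain acyl-CoA synthetases. ACSL4 prefers arachidonate and ACSL3 uses a broader range of fatty acids at the endoplasmic reticulum and lipid droplets. They were the 2 genes with the smallest p at E12.5, and the 200 bases before the RefSeq start of each are therefore shown, beside those of Fads2, the gene with the highest level per length. The strand is that of the gene, the build is GRCm38.p6, and capitals mark a CCAAT match.
Acsl3, chr1:78657625-78657824, plus strand: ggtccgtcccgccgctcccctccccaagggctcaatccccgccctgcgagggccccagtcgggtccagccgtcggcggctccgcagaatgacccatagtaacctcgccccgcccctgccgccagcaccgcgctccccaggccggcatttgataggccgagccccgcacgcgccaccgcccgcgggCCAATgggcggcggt
Acsl4, chrX:142390536-142390735, minus strand: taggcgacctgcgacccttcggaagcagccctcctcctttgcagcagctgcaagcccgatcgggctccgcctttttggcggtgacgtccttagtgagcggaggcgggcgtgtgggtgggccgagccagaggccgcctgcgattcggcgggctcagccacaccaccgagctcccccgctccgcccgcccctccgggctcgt
Fads2, chr19:10101504-10101703, minus strand: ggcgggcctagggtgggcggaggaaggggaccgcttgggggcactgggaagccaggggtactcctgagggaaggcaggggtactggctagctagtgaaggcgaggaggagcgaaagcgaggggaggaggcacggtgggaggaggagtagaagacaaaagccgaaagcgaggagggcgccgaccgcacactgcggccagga
Windows from 250 bases before to 50 after each RefSeq start were searched on both strands. The motifs were the CCAAT box, the palindromic E-box with the letters CACGTG, and a sterol regulatory element written TCACNCCAC. A window was matched for 9 of the 10 genes, all but Fads1. The CCAAT box occurred in a window of 5 of the 9, Acsl3, Pla2g4a, Pla2g12a, Elovl5 and Pla2g6. It occurred in a window of 41.1% of the 27025 genes searched, which leave out a chromosome that holds none of the 10. The E-box occurred in Elovl5 only (8.09% of the genes searched) and the sterol regulatory element in Pla2g12a only (1.44% of the genes searched). The matched Pla2g4a window (chr1:149922390-149922689) lies at a RefSeq start inside the annotated gene (chr1:149829618-149961290). The same holds for the Pla2g12a window (chr3:129880934-129881233, gene chr3:129878606-129895825). The Fads2 stretch printed above (chr19:10101504-10101703) also lies inside its annotated gene (chr19:10062765-10101746). The Acsl4 and Fads2 windows held none of the 3 motifs, and the Acsl3 window held 1 CCAAT, its first base 15 bases before the start. These matches describe the letters of the windows alone.

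At E11.5, Acsl3 was at 108 and 112 CPM in the Mboat7+/- cortices and at 109 and 99.9 CPM in the Mboat7-/- cortices. The genotypes overlapped (log2 fold change -0.07, SE 0.08). In the E12.5 cortices, it was at 89.8 and 93.4 CPM against 108 and 102 CPM. Both Mboat7-/- cortices were higher, with a log2 fold change of 0.20 (SE 0.09, 95% interval 0.00 to 0.40) and within-replicate log2 ratios of 0.27 and 0.13, but the difference did not pass the test (edgeR unadjusted p = 0.0491, adjusted p = 0.954). The difference between the 2 stages' genotype effects was 0.27 on the log2 scale (SE 0.12) and did not pass either (edgeR unadjusted p = 0.0384, adjusted p = 0.887). Acsl3 overlaps Utp14b on the same strand, which had at most 777 counts in any cortex, so that some reads may have been split between them.

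Acsl4 lies on the X chromosome (chrX:142317993-142390535, minus strand, GRCm38). It was the only one of the 10 genes for which both Mboat7-/- cortices exceeded both Mboat7+/- cortices at both stages. Of all genes tested, 23.1% lay so at E11.5 and 16.9% at E12.5, and the share at both stages was not counted. At E11.5, Acsl4 was at 28.4 and 28.0 CPM in the Mboat7+/- cortices and at 37.3 and 30.3 CPM in the Mboat7-/- cortices. At E12.5, it was at 20.4 and 21.9 CPM against 26.1 and 23.8 CPM. The E11.5 log2 fold change was 0.27 (SE 0.13, edgeR adjusted p = 0.397), and that of E12.5 was 0.24 (SE 0.12, edgeR adjusted p = 0.954). In each stage the replicate 1 pair differed more than the replicate 2 pair, by log2 ratios of 0.39 and 0.12 at E11.5 and 0.36 and 0.12 at E12.5. Over both stages, with stage as a term, the log2 fold change was 0.26 (SE 0.09, 95% interval 0.07 to 0.44) and did not pass the test (edgeR unadjusted p = 0.0102, adjusted p = 0.309). In that fit 0 of the 10 genes (0% of 14979 genes) were called at an adjusted p under 0.05, and 1 of 10, Acsl4, against 12.4% of all genes, had an unadjusted p under 0.05. The genotype difference did not differ detectably between stages (difference -0.03, SE 0.18, 95% interval -0.42 to 0.36).

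The size of the Acsl4 difference depended on single cortices and on a correction for transcript length and GC content. Without replicate 1 of the Mboat7-/- cortices it fell to 0.11 at E11.5, and without replicate 2 it was 0.40. After removal of the library-specific dependence of log counts on length and GC content, the difference was 0.12 over both stages, 0.13 in the E11.5 fit and 0.10 in the E12.5 fit. Without the Xist-positive cortex it was 0.28 at E11.5. At E11.5, 5 of 7 mesenchyme and meninges markers were above the Mboat7+/- range in both Mboat7-/- cortices, as were 23.1% of all genes. Their summed level was 1539 and 1493 CPM in Mboat7+/- and 1717 and 1905 CPM in Mboat7-/-. The summed level of the 6 dorsal forebrain markers was 1327 and 1390 CPM against 1076 and 1261 CPM. Of these markers, 5 of 6 were below in both, as were 23.3% of all genes. Summed blood markers were at 6755 and 5091 CPM against 3530 and 3749 CPM, with Hba-a1 listed at 0 in all 4 cortices. Of the 5 others, 4 were below in both (23.3% of all genes). Summed intermediate progenitor and neuron markers overlapped, at 1515 and 1708 CPM against 975 and 1555 CPM. Of these markers, 2 of 6 were below in both (23.3% of all genes) and 0 of 6 had a log2 fold change above 0 (48.9% of all genes). Neither the mesenchyme nor the forebrain list had a marker at 0 in every cortex, and the part of any of these lists in the result was not tested. At E12.5, the summed mesenchyme level was 646 and 502 CPM against 628 and 670 CPM and the genotypes overlapped. The E12.5 forebrain sums (1133 and 1185 CPM against 1205 and 1104 CPM) overlapped as well. So did the E12.5 blood sums, at 3788 and 5678 CPM against 3857 and 2497 CPM. Summed endothelium markers were at 241 and 228 CPM against 267 and 257 CPM at E11.5. Of these markers, 4 of 6 were above in both Mboat7-/- cortices (23.1% of all genes). Their E12.5 sum was 210.2 and 201 CPM against 212 and 224 CPM, with 2 of 6 above (16.9% of all genes). Summed microglia and macrophage markers overlapped at E11.5 (39.2 and 33.6 CPM against 37.0 and 41.9 CPM) and stood at 31.9 and 26.8 CPM against 33.5 and 38.7 CPM in the E12.5 cortices. Summed ventral telencephalon markers overlapped at both stages, at 439.5 and 403.5 CPM against 343.6 and 404.5 CPM at E11.5. At E12.5 they were at 571 and 539 CPM against 522 and 561 CPM. Of these markers, 3 of 6 were below in both Mboat7-/- cortices at E11.5 (23.3% of all genes) and 1 of 6 at E12.5 (15.2% of all genes). The part of these lists was not tested either. In whole cortices, fewer cells of a type and less RNA per cell cannot be told apart.

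**Figure D3:**
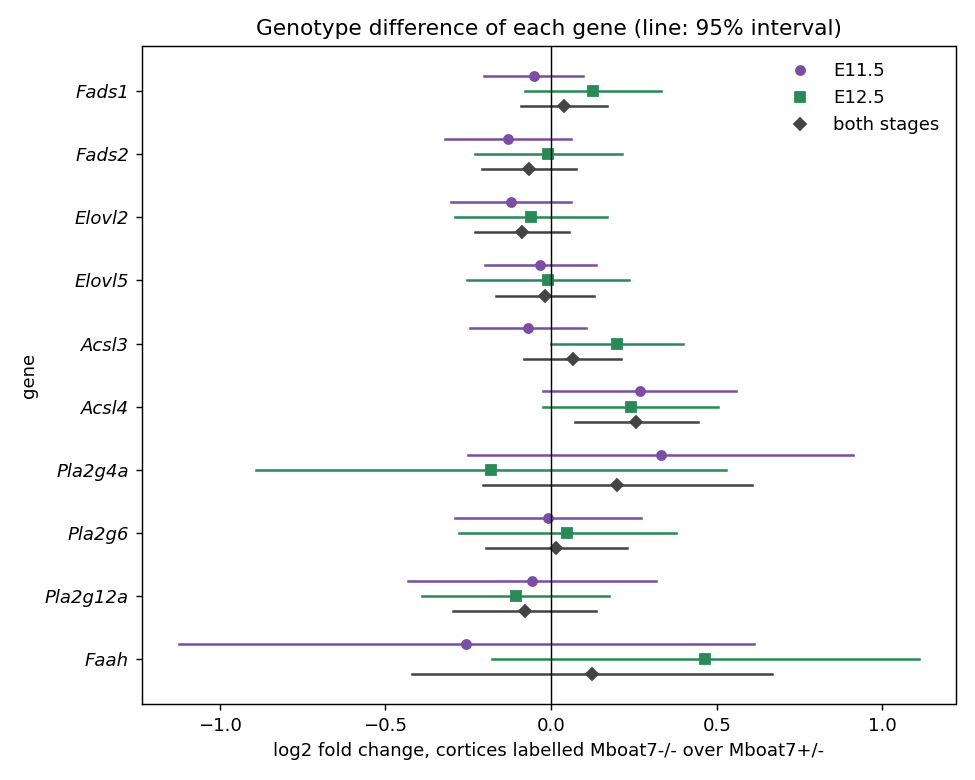
Log2 fold change of cortices labelled Mboat7-/- over Mboat7+/- (x axis) for each gene (y axis). Circles are E11.5, squares E12.5 and diamonds the fit over both stages. Lines are 95% intervals from the edgeR fits; only the Acsl4 interval over both stages and the Acsl3 interval at E12.5 leave out 0, and neither gene passed after adjustment.

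Pla2g4a, Pla2g6 and Pla2g12a encode phospholipases A2 of 3 kinds. Cytosolic phospholipase A2 alpha (Pla2g4a) is calcium-dependent and releases arachidonate selectively, Pla2g6 is calcium-independent, and Pla2g12a is a secreted form. Pla2g4a was at 4.99 and 4.04 CPM against 5.45 and 5.83 CPM at E11.5 (107 to 154 counts per cortex). Both Mboat7-/- cortices were above the Mboat7+/- cortices, with a log2 fold change of 0.33 (SE 0.26, edgeR adjusted p = 0.595). The later stage had 1.63 and 2.04 CPM against 1.56 and 1.68 CPM (34 to 44 counts), with a log2 fold change of -0.18 (SE 0.32, 95% interval -0.89 to 0.53). At E12.5 this interval was the widest of the 10 genes, at the lowest counts.

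Pla2g6 overlapped between genotypes at both stages. It was at 37.7 and 33.5 CPM against 38.2 and 32.1 CPM at E11.5 (log2 fold change -0.01, SE 0.12). In the E12.5 cortices, it was at 17.4 and 18.3 CPM against 16.1 and 20.9 CPM (log2 fold change 0.05, SE 0.15). The antisense gene annotated over it had 0 counts at E12.5. Pla2g12a was at 20.3 and 15.9 CPM against 18.1 and 16.4 CPM at E11.5, again overlapping (log2 fold change -0.06, SE 0.16). The E12.5 level was 17.1 CPM in both Mboat7+/- cortices and 15.9 CPM in both Mboat7-/- cortices. The log2 fold change of -0.11 (SE 0.13, 95% interval -0.39 to 0.18) did not pass the test (edgeR adjusted p = 0.958).

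Faah encodes fatty acid amide hydrolase, which cleaves the endocannabinoid anandamide into arachidonate and ethanolamine. It was at 3.23 and 2.30 CPM against 2.76 and 1.74 CPM at E11.5 (43 to 78 counts), and the genotypes overlapped (log2 fold change -0.26, SE 0.38). The E12.5 cortices were at 2.88 and 2.55 CPM against 2.91 and 4.60 CPM. The log2 fold change of 0.46 (SE 0.29, 95% interval -0.18 to 1.11) did not pass the test (edgeR adjusted p = 0.954) and rested on replicate 2 of the Mboat7-/- cortices, being 0.10 without it. Faah had the largest difference between stages of the 10 genes' genotype effects, at 0.72 on the log2 scale (SE 0.49, 95% interval -0.34 to 1.78), which did not pass the test (edgeR adjusted p = 0.907).

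Counting over the 10 genes, both Mboat7-/- cortices were above both Mboat7+/- cortices for 2 at E11.5 (Acsl4 and Pla2g4a, 23.1% of all genes) and for 4 at E12.5 (Fads1, Acsl3, Acsl4 and Faah, 16.9% of all genes). They were below for 1 gene at each stage, Elovl2 at E11.5 (23.3% of all genes) and Pla2g12a at E12.5 (15.2% of all genes). For the interaction of stage and genotype, 0 of 10 genes were called (0% of 14979 genes) and 1 of 10 had an unadjusted p under 0.05 (5.47% of all genes), again Acsl3.

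The level of several genes differed between the stages in every cortex, which is given as a description only. Pla2g6 ranged from 32.1 to 38.2 CPM at E11.5 and from 16.1 to 20.9 CPM at E12.5. Pla2g4a ranged from 4.04 to 5.83 CPM at E11.5 and from 1.56 to 2.04 CPM at E12.5. Fads2 ranged from 195 to 241 CPM at E11.5 and from 287 to 321 CPM at E12.5, whereas Fads1 was higher at E11.5 (281 to 312 CPM) than at E12.5 (218 to 251 CPM). The 2 desaturase genes thus stood apart between the stages in opposite directions, while per length Fads2 had the higher mean at both. Stage cannot be told apart from provider, platform or gene listing, so these differences cannot be assigned to development. Hba-a1, for example, had 0 CPM in every E11.5 cortex and 842 to 1616 CPM in the E12.5 cortices.

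To see whether genes around the same steps differed, 85 other genes in 5 lists were examined. At E11.5, 0 of the 68 tested were called and 7 had an unadjusted p under 0.05, of which 6 were lower (6.07% of all genes) and 1 (Acsl1) higher (8.03% of all genes). At E12.5, 0 of the 64 tested were called and 5 had an unadjusted p under 0.05, of which 3 were higher (2.85% of all genes) and 2 lower (1.38% of all genes). The secreted phospholipase A2 gene Pla2g2a had no count in any cortex and Ptgs2, the inducible cyclooxygenase, had at most 4 counts, so neither was tested.

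Of the 15 tested genes of polyunsaturated fatty acid synthesis, Tecr, a reductase of the elongation cycle, had the smallest p at E11.5. It was at 274 and 266 CPM in Mboat7+/- and at 233 and 221 CPM in Mboat7-/-, both lower (log2 fold change -0.25, SE 0.06, edgeR adjusted p = 0.185). At E12.5 the smallest p was that of Elovl7, an elongase of long-chain fatty acids, at 0.721 and 0.602 CPM against 1.17 and 1.90 CPM. Its 13 to 43 counts gave a log2 fold change of 1.21 (SE 0.43, edgeR adjusted p = 0.954).

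In the list of fatty acid uptake, binding and activation (14 tested), Fabp5, a fatty acid-binding protein gene, was at 231 and 240 CPM against 200.3 and 198 CPM at E11.5. Its log2 fold change was -0.25 (SE 0.06, edgeR adjusted p = 0.186). At E12.5 the smallest p was that of Mfsd2a, the lysophosphatidylcholine-DHA transporter of the blood-brain barrier. It was at 22.1 and 22.3 CPM against 28.4 and 27.6 CPM (log2 fold change 0.33, SE 0.11, edgeR adjusted p = 0.954). Both Mboat7-/- cortices were higher.

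Among other phospholipases A2 and related lipases, 16 of 27 were tested at E11.5 and 13 at E12.5. Pafah1b3, a catalytic subunit of platelet-activating factor acetylhydrolase, was at 124 and 137 CPM against 97.2 and 112 CPM at E11.5 (log2 fold change -0.32, SE 0.09, edgeR adjusted p = 0.207). Pnpla2, the adipose triglyceride lipase, was at 16.7 and 17.0 CPM against 13.4 and 14.8 CPM at E12.5 (log2 fold change -0.26, SE 0.14, edgeR adjusted p = 0.954). The Mboat7-/- cortices were the lower ones in both cases.

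In the endocannabinoid list (10 tested), Abhd4, an enzyme of N-acylethanolamine synthesis, was at 57.9 and 52.1 CPM against 43.7 and 47.4 CPM at E11.5 (log2 fold change -0.27, SE 0.10, edgeR adjusted p = 0.280). Cnr1, the cannabinoid receptor CB1 gene, was at 61.3 and 49.3 CPM against 68.7 and 103 CPM at E12.5 (log2 fold change 0.63, SE 0.17, edgeR adjusted p = 0.954). At E11.5, Cnr1 overlapped between genotypes, with a log2 fold change of -0.37 (SE 0.21). In the eicosanoid list, Hpgd, the prostaglandin-degrading dehydrogenase, was at 2.26 and 3.63 CPM against 4.67 and 4.33 CPM at E11.5 (log2 fold change 0.58, SE 0.32, edgeR adjusted p = 0.447). Lta4h, the leukotriene A4 hydrolase, was at 73.1 and 76.6 CPM against 68.8 and 64.2 CPM at E12.5 (log2 fold change -0.17, SE 0.09, edgeR adjusted p = 0.954).

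The counts of the other pathway genes depended on whether the replicate number, which the labels give as a batch, entered the fit as a block. With the block, 4 of the 68 genes were called at E11.5, where 3.38% of all genes were called, and 1 of 64 at E12.5, where 0.196% of all genes were called. The 4 were Tecr, Fabp5, Pafah1b3 and Fabp7, all lower in Mboat7-/-, and the 1 was Cnr1, which was higher. Fabp7, a radial glial fatty acid-binding protein gene that is named here after its values were seen, was at 213 and 251 CPM against 142 and 232 CPM at E11.5. Without the block, the genotypes overlapped and the log2 fold change was -0.32 (SE 0.19, edgeR adjusted p = 0.482). With the block, it was -0.34 (edgeR adjusted p = 0.0381), and that of Cnr1 at E12.5 was 0.61 (edgeR adjusted p = 0.0189). The Fabp7 difference rested on replicate 1 of the Mboat7-/- cortices, since without the block it was -0.0014 when that cortex was left out and -0.71 when replicate 2 was. The Cnr1 difference rested more on replicate 2 of the Mboat7-/- cortices, with within-replicate log2 ratios of 0.16 and 1.06 and, without the block, 0.31 without that cortex and 0.88 without replicate 1. With length and GC trends removed as well as the block, 0 of the 68 genes were called at E11.5 (127 of 14935 genes tested). Cnr1 was still called at E12.5 (59 of 16326 genes tested). With replicate numbers crossed between the genotypes, a setting added after seeing the data, Cnr1 was called too (log2 fold change 0.61, edgeR adjusted p = 0.000167). In that crossed fit 158 of the 16326 genes tested were called. The part of the labelled batch in the Cnr1 difference was not tested. None of the 10 arachidonate supply and release genes was called with the block.

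**Figure D4:**
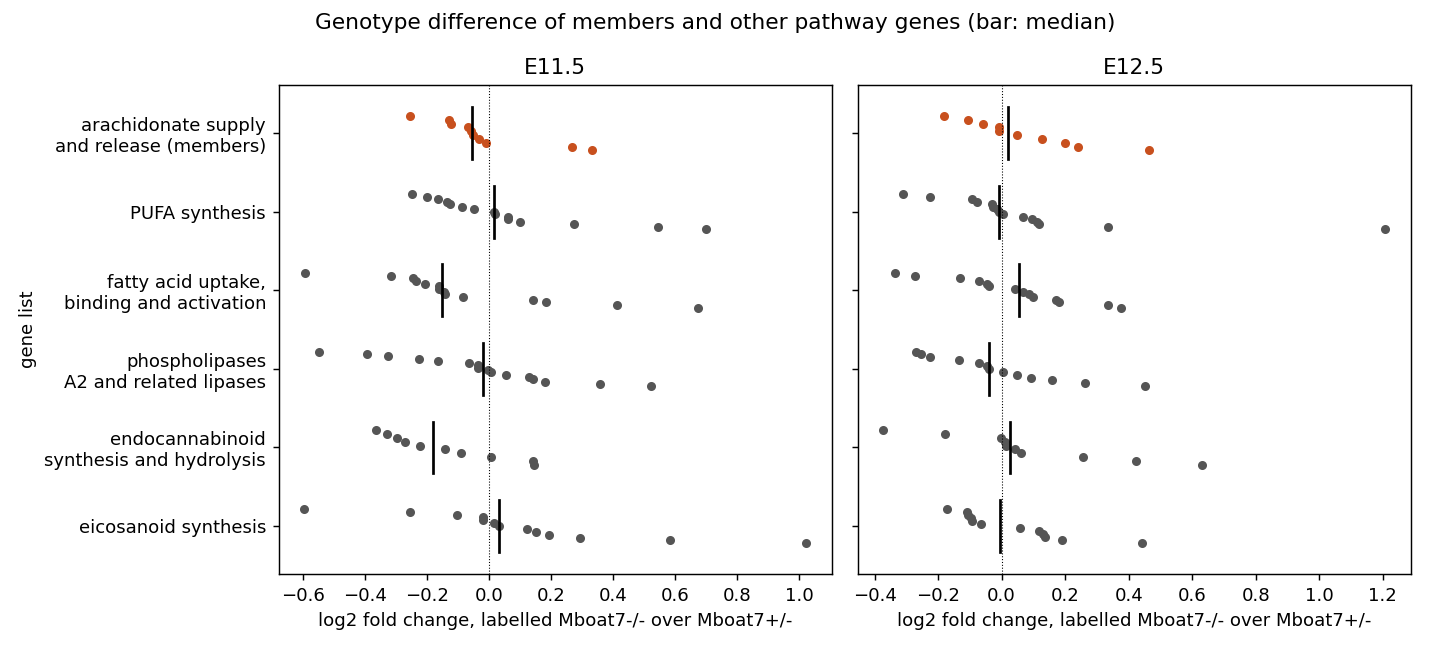
Log2 fold change of cortices labelled Mboat7-/- over Mboat7+/- (x axis) for each tested gene (points) of the 10 genes and of the 5 other lists (y axis). The left panel is E11.5 and the right panel E12.5. Bars are medians, which for the 10 genes are -0.05 and 0.02, and no point in either panel passed the adjusted test without the replicate block.

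The mean stage-centred log2 CPM of the 10 genes ranged from -0.08 to 0.09 over the 8 cortices, and the highest and lowest values were both at E11.5. The genes with the most similar profile over the 8 cortices, among 13613 ranked, were Abcb4 (Pearson r = 0.981), Aen (0.965) and Litaf (0.957). Within the 10 genes, Pla2g6 and Faah had the highest correlation over the 8 cortices (Pearson r = 0.826), followed by Fads1 and Acsl3 (0.796). Elovl2 and Pla2g6 had the lowest (-0.757). These are descriptions, since the 8 points share libraries and composition.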

How the data were processed

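Read counts per gene of 8 cortices were used as the authors deposited them, as raw counts in 1 table per stage. Per the labels, HISAT2 and Subread were used, with mm10 and GRCm39 named and their roles not given. Strand setting, annotation and versions are not given in the sources used here. Tables listed 23420 (E11.5) and 78298 (E12.5) genes, and Ensembl identifiers at E12.5 were matched to symbols with GENCODE M21, which also gave lengths and coordinates.

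Genes passing filterByExpr (minimum count 10) were fitted per stage with the edgeR 4.0.16 quasi-likelihood test after TMM scaling (R 4.3.3). Fits over both stages had stage as a term. P-values were adjusted by Benjamini-Hochberg over all genes tested and called under 0.05. CPM are TMM-normalized. A value of 3 counts corresponds to 0.106 to 0.144 CPM, covering counting error only. Alternatives were RLE and upper-quartile factors, DESeq2 1.42.0, other filters, the replicate block and leaving out each cortex. Length and GC trends (splines with 5 degrees of freedom) and crossed replicate numbers were added after seeing the data. Scripts were tested on simulated data. The genes and lists were chosen with earlier results of these data known. Named pathway genes are those called or, otherwise, that with the smallest p per list and stage. Same-numbered cortices share a labelled batch, and their deviations correlated at 0.0833 in the E11.5 table and at -0.201 in the E12.5 table. Of the marker lists, 1 gene is not reported here.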

Additional observations from a re-analysis of the deposited data

How the results depend on the processing

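None of the 10 genes was called at either stage, over both stages or for the interaction under any alternative that was run, 0 also when each cortex was left out. The replicate block gave 505 called genes at E11.5 over all genes (0 without it) and 32 at E12.5 (3 without it), and DESeq2 gave 178 and 10. Without replicate 2 of the Mboat7-/- cortices, 1184 genes were called at E11.5. Pla2g4a and Faah had the lowest counts of the 10 genes (34 to 154 per cortex) and the widest intervals.

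At an unadjusted p under 0.05, the replicate block gave 1 of the 10 genes at E11.5 (17.6% of all genes). At E12.5, 0 remained with RLE factors, DESeq2, no filter, the replicate block, or the length and GC trend removed with or without the block. Over both stages 0 remained with that trend removed, with or without the block, and for the interaction 0 with DESeq2, no filter, the block, or the trend removed with or without it. Other pathway genes called with the replicate block numbered 4 at E11.5 and 1 at E12.5. With the trend removed as well they numbered 0 at E11.5 (127 of all genes) and 1 at E12.5 (59 of all genes). With crossed replicate numbers at E12.5, 0 of the 10 genes and 1 other pathway gene, Cnr1, were called, and 158 of all genes were called. In that fit 3 of the 10 had an unadjusted p under 0.05 (12.7% of all genes). Upper-quartile factors moved the E11.5 median to -0.0709. With the trend removed, the Pla2g6 fold change at E11.5 turned to 0.0317 (0.0215 with the block) and the Elovl5 interaction to -0.0144 (-0.0225 with the block). The cause of these shifts was not tested.

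Leaving out 1 cortex at a time, the E11.5 median log2 fold change of the 10 genes lay between -0.116 and 0.0175, and the E12.5 median between -0.0134 and 0.0839. Each of these fits left 1 cortex of a genotype at 1 stage, so counts of genes passing a threshold in them are not read as results about the genes. Signs turned at E11.5 for Fads1 (-0.101 to 0.00646), Elovl5 (-0.0839 to 0.0285), Pla2g6 (-0.15 to 0.10), Pla2g12a (-0.23 to 0.12) and Faah (-0.651 to 0.00930). At E12.5 they turned for Fads2 (-0.0873 to 0.0737), Elovl2 (-0.201 to 0.0661), Elovl5 (-0.18 to 0.14) and Pla2g6 (-0.15 to 0.22). Over both stages they turned for Elovl5 (-0.0826 to 0.0360), Pla2g6 (-0.0514 to 0.0737) and Faah (-0.11 to 0.29), and for the interaction for Acsl4 (-0.16 to 0.12), Elovl2 (-0.0726 to 0.178), Elovl5 (-0.14 to 0.16), Pla2g6 (-0.15 to 0.24) and Pla2g12a (-0.23 to 0.13).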

Other observations

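The ratio of counts between related enzymes was taken within each cortex, which needs no scaling for library size but leaves length and GC trends in place. The 3 pairs were chosen after the values had been seen, so the ratios are a description with no test. At E11.5, the Fads1 to Fads2 ratio was 1.30 and 1.37 for Mboat7+/- against 1.38 and 1.44 for Mboat7-/-. At E12.5, it was 0.759 and 0.705 against 0.805 and 0.799. The ratio was higher in both Mboat7-/- cortices at both stages, though at E11.5 the nearest values were 1.371 for Mboat7+/- and 1.377 for Mboat7-/-. How many other gene pairs separate in this way was not counted. The Acsl3 to Acsl4 ratio was 3.79 and 4.01 against 2.93 and 3.30 at E11.5, and 4.41 and 4.27 against 4.14 and 4.30 at E12.5, where the genotypes overlapped. The Elovl2 to Elovl5 ratio was 0.632 and 0.692 against 0.595 and 0.650 at E11.5, and 1.00 and 0.905 against 0.905 and 0.934 at E12.5. For this pair the genotypes overlapped at both stages.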
